A study of Mus musculus with 48 samples.

Results

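ATP-binding cassette (ABC) transporters were described over 8 groups of mouse tissue samples. The members were all probe sets of the array whose platform annotation gave exactly 1 gene symbol, of the form Abc followed by a family letter from a to g and a digit. This rule took 65 of 22626 probe sets, or 36 of 12393 genes named by such probe sets, and used no measured value. The 36 genes were 7 of family A, 8 of B, 8 of C, 3 of D, 1 of E, 3 of F and 6 of G. All 65 were matched by Entrez ID to RefSeq genes, which lie on 16 chromosomes. Of the 36 genes, 15 had several probe sets, and the one with the highest mean over all samples stood for its gene.

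The series compared transcription between the sexes in healthy mouse tissues on Affymetrix arrays. The 8 groups were male liver, female liver, male kidney, female kidney, male hypothalamus, female hypothalamus, testis and ovary, each with n = 3 RNA samples hybridised in duplicate, 48 arrays and 24 RNA samples in all, and duplicate arrays were averaged. Purchased RNA was used, each sample from a pool of 10 animals, and the labels give no strain, age, treatment or genotype. The description names polyA RNA for liver, kidney, testis and ovary and total RNA for hypothalamus, while another field gives total RNA for all, so RNA type and tissue cannot be told apart where hypothalamus is compared with another tissue.

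ABC proteins bind and hydrolyse ATP, and most use that energy to move substrates out of a cell or into an organelle. In liver they load bile across the canalicular membrane with bile salts, phospholipid, sterols and conjugates. In kidney tubules and at the blood-brain barrier they carry drugs and organic anions back out. The E and F families have the ATP-binding domains but no membrane part and work with ribosomes.

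Among places where members lie side by side, 2 are shown here with their promoters, since the neighbours differed in whether they were high in the same tissue. RefSeq promoter windows (GRCm38.p6, 250 bases before to 50 after the start) were found for 27 of the 36 genes, in 33 windows. Abcg5 (chr17:84682962-84683261, minus strand) and Abcg8 (chr17:84682871-84683170, plus strand) are transcribed away from each other from starts 110 bases apart. This holds for the Abcg8 start used here. The RefSeq gene Abcg8 as a whole begins earlier, at 84676302, inside Abcg5 (84658174 to 84683011). Their 300-base windows share 209 bases, in capitals below, 5′ to 3′ on each gene's own strand.

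Abcg5: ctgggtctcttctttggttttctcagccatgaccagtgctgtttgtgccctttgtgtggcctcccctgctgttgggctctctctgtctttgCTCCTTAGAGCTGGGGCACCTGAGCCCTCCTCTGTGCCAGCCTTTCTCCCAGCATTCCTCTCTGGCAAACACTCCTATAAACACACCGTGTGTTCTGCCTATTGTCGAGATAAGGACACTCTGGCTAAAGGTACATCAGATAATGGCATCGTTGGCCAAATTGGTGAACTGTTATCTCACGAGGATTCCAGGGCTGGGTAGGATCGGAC
Abcg8: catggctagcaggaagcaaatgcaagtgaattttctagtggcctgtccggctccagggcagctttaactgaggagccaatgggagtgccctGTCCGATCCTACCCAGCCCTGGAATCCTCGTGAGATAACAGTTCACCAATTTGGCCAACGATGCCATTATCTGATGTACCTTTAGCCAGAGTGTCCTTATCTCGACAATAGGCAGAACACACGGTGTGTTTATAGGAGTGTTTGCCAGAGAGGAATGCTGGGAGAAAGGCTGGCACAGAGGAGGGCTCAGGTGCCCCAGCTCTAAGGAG

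On chromosome 5, Abcb1a, Abcb1b and Abcb4 follow each other on the plus strand, with gaps of 49.6 kb and 27.3 kb between them. Their windows are at chr5:8566841-8567140, chr5:8797897-8798196 and chr5:8893471-8893770, and capitals mark a GC box (GGGCGG) or a CCAAT box (CCAAT), each searched on both strands with overlaps allowed.

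Abcb1a: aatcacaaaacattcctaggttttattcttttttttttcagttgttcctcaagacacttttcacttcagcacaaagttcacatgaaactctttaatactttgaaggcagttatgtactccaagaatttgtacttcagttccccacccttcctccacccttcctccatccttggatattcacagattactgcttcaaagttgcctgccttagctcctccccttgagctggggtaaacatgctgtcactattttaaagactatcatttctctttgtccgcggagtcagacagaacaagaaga
Abcb1b: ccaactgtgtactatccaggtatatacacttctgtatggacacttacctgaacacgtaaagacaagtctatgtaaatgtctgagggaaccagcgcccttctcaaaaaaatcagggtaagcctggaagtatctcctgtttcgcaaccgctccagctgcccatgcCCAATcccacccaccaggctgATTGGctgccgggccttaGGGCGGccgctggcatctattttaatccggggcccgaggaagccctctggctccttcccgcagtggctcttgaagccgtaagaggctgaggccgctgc
Abcb4: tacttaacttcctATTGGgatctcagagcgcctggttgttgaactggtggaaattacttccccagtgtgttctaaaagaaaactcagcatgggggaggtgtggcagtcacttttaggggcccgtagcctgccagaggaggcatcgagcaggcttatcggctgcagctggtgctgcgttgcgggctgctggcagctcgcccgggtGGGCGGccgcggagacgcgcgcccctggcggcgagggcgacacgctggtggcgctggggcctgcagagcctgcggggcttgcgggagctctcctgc

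The Abcb1b window held 1 GC box and 2 CCAAT boxes, and the Abcb4 window 1 of each. The Abcb1a window held neither string of letters. Of all 32851 RefSeq promoter windows 35.7% held the GC box and 37.4% the CCAAT box, against 19 and 11 of the 33 member windows. The TATA box (TATAAA) was in 1 copy in the Abcg5 and the Abcg8 windows, in 7 of the 33 member windows and in 13.6% of all windows.

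Deposited intensities are linear and were already on a common scale, with a trimmed mean of 500.115 to 500.228 on each array and medians of 163.4 to 276. The 2 arrays of an RNA sample correlated at 0.9656 to 0.99, and precision is limited by the 3 RNA samples of each group. Whether the RNA samples of a group were drawn from different pools is not stated in the labels, so the spread behind the p-values may be technical. Each tissue expressed its own markers: 6 of 6 hepatocyte markers on the array lay above the 40th percentile of all intensities in every liver sample, 9 of 9 proximal tubule markers in kidney, 8 of 8 neuron markers in hypothalamus, 7 of 7 spermatid markers in testis, and 7 of 7 oocyte and 6 of 6 granulosa markers in ovary. That percentile, used here as a line below which a signal was not told apart from background, was at an intensity of 110.01 to 185.66. Male and female RNA samples with the same number deviated together in kidney, and less clearly in liver and hypothalamus. The main fits are unpaired. Each comparison of the sexes within a tissue was also fitted with same-numbered samples as a replicate block, and calls that this changed are stated. All adjusted p-values are from limma, with Benjamini-Hochberg adjustment over all tested probe sets. Log2 differences are on the scale log2(intensity + 48.28), which shrinks the differences of dim probe sets. Of the 65 members, 12 were too dim to be tested in any comparison, and Abcc10 was the gene with no tested probe set. Its intensity lay between 13.5 and 53.8 in all 24 samples.

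**Figure D1:**
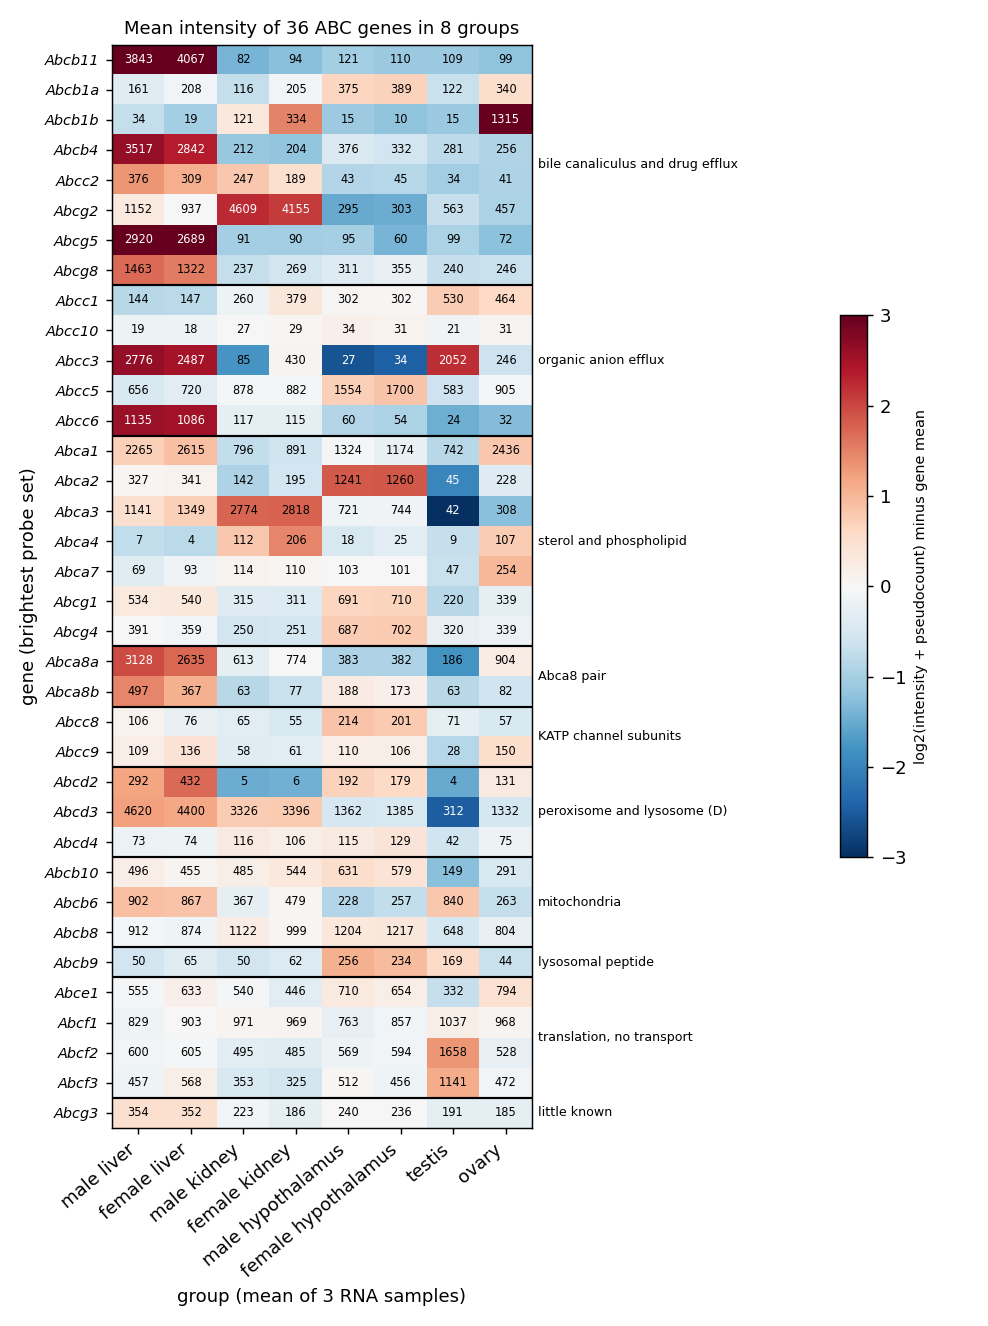
Mean intensity of the 36 genes (rows, the brightest probe set of each, grouped by role) in the 8 groups (columns, mean of 3 RNA samples). The number in a cell is the mean intensity and the colour is its log2(intensity + pseudocount) minus that gene's mean over the 8 groups, so colours compare groups within a gene; Abcb11 reads 3843 and 4067 in male and female liver against 82 to 121 elsewhere.

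The first question was which members stood out in a tissue. A probe set was said to lead a tissue where it was higher than in each of the other 4 tissues by at least 1 on the log2 scale, with a limma adjusted p below 0.05 in each contrast. Of 53 tested member probe sets, 17 led a tissue (32.1%, of 16 genes), against 29.2% of all 18092 tested probe sets, so the share of members was near that of the array. In liver 8 members led, against 4.23% of all probe sets, in kidney 3 (2.69%), in hypothalamus 3 (9.28%), in testis 2 (9.98%) and in ovary 1 (2.98%). In bulk RNA, fewer cells of a type and less RNA per cell cannot be told apart.

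Of 8 genes for canalicular pumps and drug efflux, 4 led liver, 1 led kidney and 1 led ovary. Over all tested probe sets 4.23%, 2.69% and 2.98% led these tissues. The list was drawn up around a liver structure with earlier results of these data known, so its liver count is no test. Abcb11, the bile salt export pump, read 4460, 3266 and 3804 in male liver and 4741, 3469 and 3991 in female liver. Outside liver all 18 samples lay between 58.5 and 139, with no overlap. Its lead over hypothalamus, the next tissue, was 4.64 ± 0.14 (SE) on the log2 scale (limma adjusted p = 1.25e-16). Since every hypothalamus sample was under its 40th percentile, liver was at least 22.5-fold higher, taking that percentile as the floor.

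Abcb4, which flips phosphatidylcholine into bile, read 4259, 2923 and 3369 in male and 2693, 3262 and 2571 in female liver. Kidney samples lay between 117 and 292 and hypothalamus samples between 286 and 433, far below every liver sample. The lead over hypothalamus was 3.00 ± 0.16 (limma adjusted p = 5.22e-13).

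Abcg5 and Abcg8 are partner proteins that pair to secrete sterols into bile and gut, and their promoter windows overlap as printed above. Abcg5 read 3475, 2890 and 2396 in male and 2776, 2678 and 2613 in female liver, and 30.2 to 128 in the other 18 samples. Abcg8 read 1603, 1397 and 1389 in male and 1315, 1300 and 1351 in female liver, and 203 to 396 elsewhere. Both genes were high in the same 6 samples and low in the same 18. Their leads were 4.29 ± 0.16 for Abcg5 (over testis, limma adjusted p = 1.15e-16, at least 23.5-fold) and 1.94 ± 0.10 for Abcg8 (over hypothalamus, 1.87e-13). Abcg8 lay above the 40th percentile in all 24 samples, while Abcg5 lay above it in liver alone.

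Abcc2, which exports bilirubin and drug conjugates, led no tissue. It read 596, 262 and 269 in male and 410, 287 and 232 in female liver, and 347, 224 and 171 in male and 263, 156 and 148 in female kidney. The liver and kidney ranges overlapped, with liver higher by 0.53 ± 0.18 (limma adjusted p = 0.0179). In hypothalamus, testis and ovary all samples lay between 22.3 and 57, under the 40th percentile.

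Abcc6, an efflux pump of liver whose loss leads to calcification of soft tissue, read 1533, 863 and 1008 in male and 1079, 1095 and 1084 in female liver. The next tissue was kidney at 97.2 to 133, and the lead was 2.80 ± 0.16 (limma adjusted p = 8.45e-13). In kidney 1 of 3 male and 0 of 3 female samples lay above the 40th percentile, so the size of this lead rests in part on the pseudocount. Of the little-studied Abca8 pair on chromosome 11, 29.4 kb apart, Abca8a led liver by 1.62 ± 0.16 over ovary (1.05e-08), with a mean of 2882 ± 547 (SD, n = 6) in liver and 904 in ovary. Abca8b led by 1.06 ± 0.11 over hypothalamus (8.73e-09), close to the size required, and fell to 0.99 without female liver sample 1 or without female hypothalamus sample 1. The last liver call was a probe set of Abcf1 (1426921_at), a ribosome-binding protein, at 1.11 ± 0.27 over kidney (0.00134). The 3 other tested probe sets of Abcf1 led no tissue. One of them (1452429_s_at) went the other way, with every liver sample, at 174 to 364, below every other sample, at 382 to 536. The lead of 1426921_at fell to 0.99 without male kidney sample 2 and to 0.96 without female kidney sample 2. Whether Abcf1 was high in liver is thus not settled by its probe sets.

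Genes that work with these pumps were described from lists. The lists were chosen with earlier results of these data known, so their counts are no test. Over all tested probe sets 4.23% led liver. Of 11 tested bile acid partners 7 led liver, among them the uptake carrier Slc10a1 at 7998 ± 1251 (SD, n = 6) and Cyp7a1, the rate-limiting enzyme of bile acid synthesis, at 1557 ± 540. Slc51a, a basolateral bile acid exporter subunit, led kidney. Of 12 sterol efflux partners 4 led liver (Apoa2, Apoa1, Lcat and Nr1h3) and the lipoprotein receptor Scarb1 led ovary. Of 12 xenobiotic regulators 4 led liver, the receptors Nr1i3 and Nr1i2 and the factors Foxa2 and Cebpa. Markers of exocrine pancreas were present in liver, 7 of 7 above the 40th percentile, with summed intensities of 8179 to 39346 in male and 14357 to 33077 in female liver, against 747.8 to 4868 in all other groups. Macrophage markers were 9 of 9 in liver, with sums of 20023 to 49477 against 5439 to 12135 elsewhere. Their part in the liver leads was not tested.

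**Figure D2:**
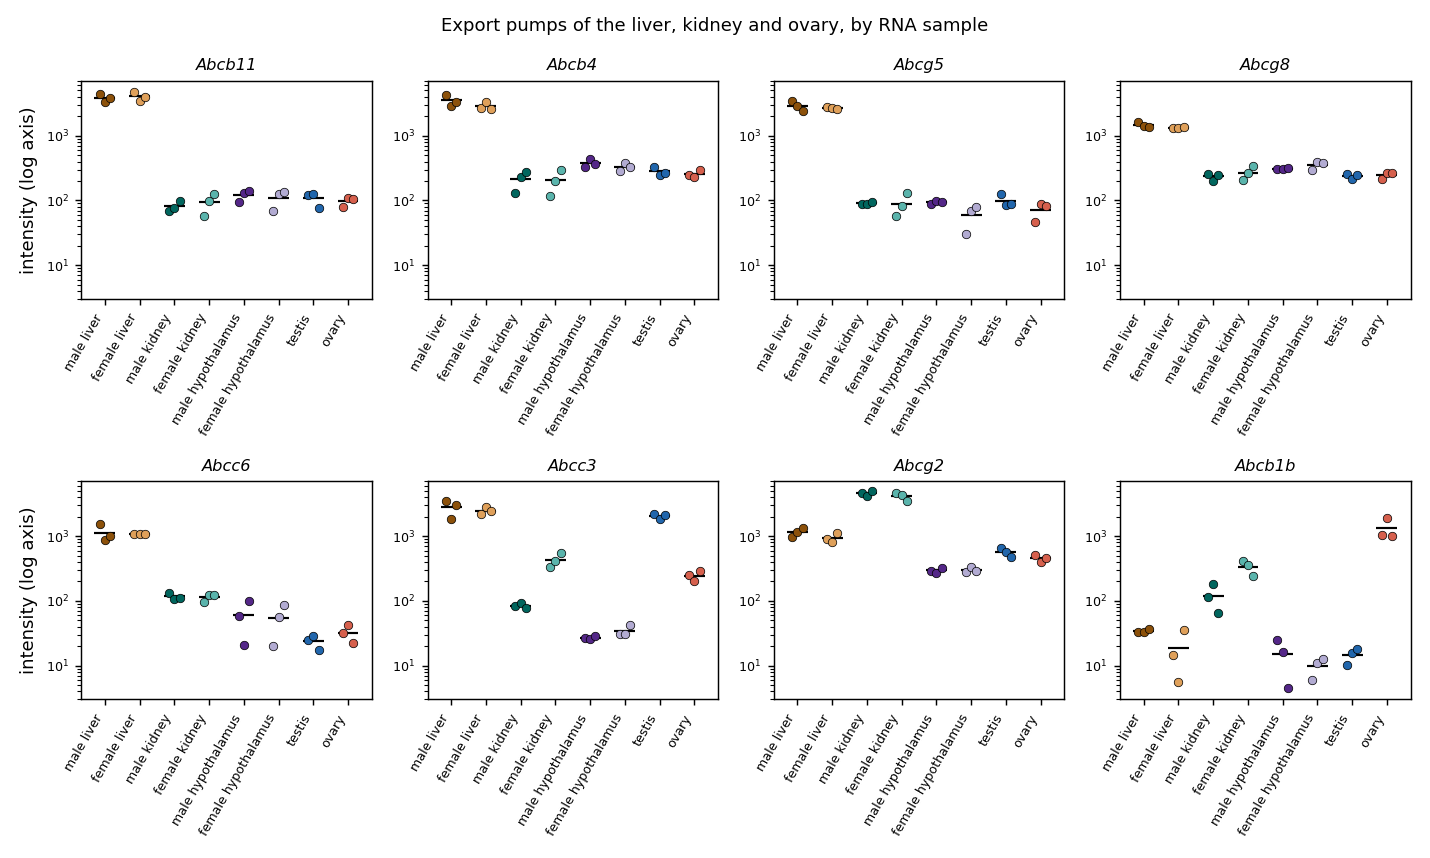
Intensity (log axis) of 8 export pumps in each of the 24 RNA samples; points are RNA samples, coloured by group, and bars are group means. Abcb11, Abcb4, Abcg5, Abcg8 and Abcc6 are high in the 6 liver samples, Abcg2 in the 6 kidney samples and Abcb1b in the 3 ovary samples, while Abcc3 is high in liver and testis and lower in male than in female kidney.

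Kidney was led by Abcg2 and Abca3. Abcg2, an exporter of urate, porphyrins and many drugs, read 4676, 4166 and 4986 in male and 4630, 4397 and 3439 in female kidney. Liver followed at 811 to 1336, and hypothalamus was lowest at 270.4 to 334, without overlap between these 3 tissues. The lead over liver was 2.03 ± 0.11 (limma adjusted p = 1.71e-13).

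Abca3, a lamellar body phospholipid transporter known from lung, had 2 probe sets that led kidney, by 1.15 ± 0.16 and 1.11 ± 0.14 over liver (limma adjusted p = 2.28e-06 and 4.99e-07). The brighter one read 2902, 2232 and 3188 in male and 3104, 2534 and 2815 in female kidney, and 878 to 1518 in liver. In testis it lay under the 40th percentile in all 3 samples, while the dimmer one lay above it in all 3. The dimmer probe set fell to 1.00 without male liver sample 2, just under the size required. Of 8 organic anion carriers and partners of the kidney, 7 led kidney, among them Slc22a6 and Slc22a8, which take up anions from blood. Over all tested probe sets 2.69% led kidney. The list was made of kidney carriers, and Slc22a6 and Slc22a8 are also proximal tubule markers, so the count describes the list and tests nothing.

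In hypothalamus Abcg4, a sterol exporter of nerve cells, read 933, 901 and 991 in male and 952, 1001 and 1080 in female samples by one probe set (1424437_s_at), against 64.5 to 232 elsewhere. The lead over ovary was 2.27 ± 0.15 (limma adjusted p = 4.20e-12). By the brighter probe set (1427732_s_at) hypothalamus was also highest, at 606 to 858, but by 0.81 ± 0.12 over liver, under the size required.

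Abca2, an endosomal sterol transporter abundant in oligodendrocytes, read 1175, 1188 and 1361 in male and 1263, 1270 and 1246 in female hypothalamus. Liver was next at 203.4 to 421, and the lead was 1.80 ± 0.19 (8.71e-09). All 7 oligodendrocyte markers on the array lay above the 40th percentile in hypothalamus, with sums of 34538 to 37872 against 1264 to 6033 elsewhere.

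Abcc5, an exporter of cyclic nucleotides and organic anions, had 7 probe sets, and each was highest in hypothalamus by mean. Just 1 of them, 1435684_at, passed the size required, by 1.005 over ovary (1.20e-04). It lost that call without any of 6 samples (male hypothalamus 2 and 3, female hypothalamus 1 and 2, ovary 1 and 2), at 0.95 to 1.00. The brightest probe set was higher by 0.83 ± 0.14 over ovary. Abcc8, the sulfonylurea receptor subunit of KATP channels, was above the 40th percentile in hypothalamus alone, at 177 to 232, without reaching a lead of 1 over liver (0.90 ± 0.12).

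Testis was led by Abcf2 and Abcf3, ATPases of the ribosome-associated F family. Abcf2 read 1756, 1441 and 1776, above the 410 to 696 of all 21 other samples, a lead of 1.39 ± 0.13 over liver (limma adjusted p = 2.37e-09). For Abcf3 testis read 975, 975 and 1472 by the brighter probe set, above the 291 to 696 of the others, a lead of 1.07 ± 0.14 (1.11e-06). Without testis sample 3 that lead fell to 0.88. A second Abcf3 probe set (1426748_s_at) read 185, 178 and 160 in testis and 134 to 291 elsewhere, and led no tissue.

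**Figure D3:**
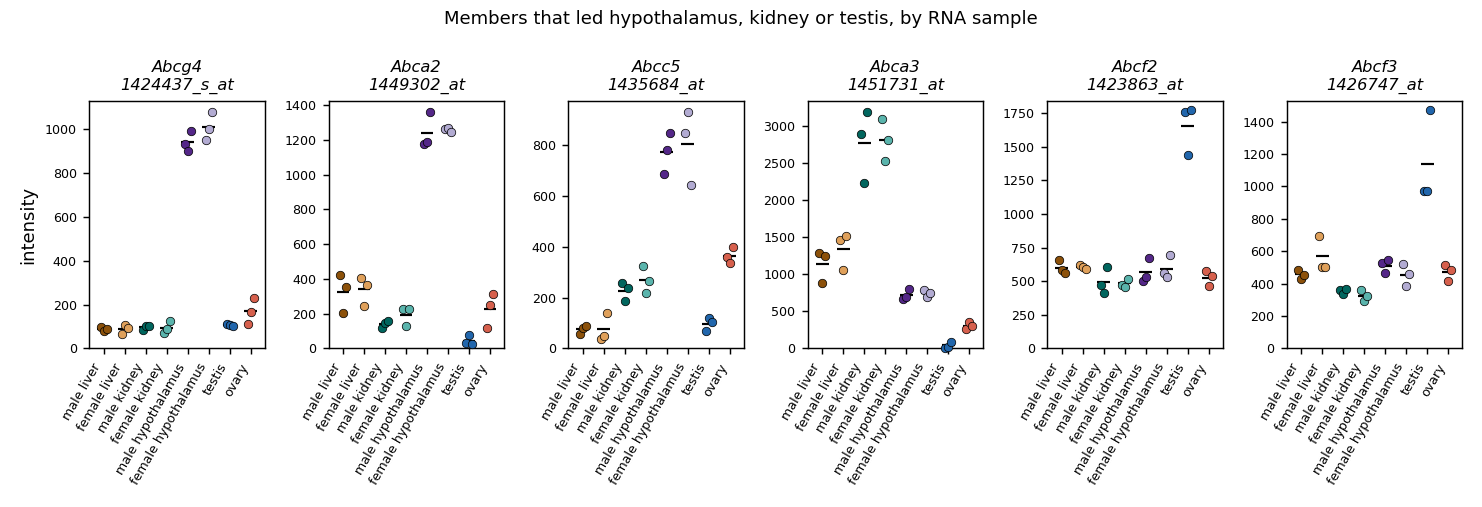
Intensity (linear axis from 0) of 6 members that led hypothalamus (Abcg4, Abca2, Abcc5), kidney (Abca3) or testis (Abcf2, Abcf3), by the probe set named; points are the 24 RNA samples and bars group means. Hypothalamus samples lie at 642 or above for the first 3 genes, and testis samples lie above all others for Abcf2 and Abcf3.

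Ovary was led by Abcb1b, 1 of the 2 mouse genes for P-glycoprotein, which pumps drugs and steroids out of cells. It read 1026, 1908 and 1010 in ovary, 407, 356 and 240 in female kidney and 113, 183 and 65 in male kidney. All samples of liver, hypothalamus and testis lay at 36.4 or below, under the 40th percentile. The lead over kidney was 2.39 ± 0.20 (limma adjusted p = 1.14e-09).

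Its 2 neighbours on chromosome 5, whose promoters are printed above, had other patterns. Abcb1a, the second P-glycoprotein gene and the form known from brain capillaries, was brightest in hypothalamus (359 to 415) and ovary (305, 404 and 312), which did not differ beyond their error (0.16 ± 0.15, limma adjusted p = 0.39). Abcb4 was brightest in liver, as given above, and read 229 to 293 in ovary. By mean alone the 3 neighbours were highest in 3 different tissues, but for Abcb1a hypothalamus was not told apart from ovary, the tissue that Abcb1b led.

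Abcc3 led no tissue because it was high in both liver and testis. This basolateral pump carries glucuronides and bile acids from the cell to blood. It read 3463, 1849 and 3016 in male liver, 2194, 2845 and 2421 in female liver and 2210, 1817 and 2128 in testis. Liver and testis overlapped (0.33 ± 0.16, limma adjusted p = 0.0700). Female kidney read 339, 406 and 544, ovary 247, 206 and 285, male kidney 84, 91.2 and 79, and hypothalamus 25.4 to 41.9.

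Within tissues the question was whether members differed between the sexes. In liver 0 of 40 tested member probe sets passed (limma), against 0.0506% of all probe sets, and 0 had an unadjusted p below 0.05, against 1.95%. In hypothalamus 0 of 42 passed, against 0.0508%, and 0 unadjusted, against 2.27%. In kidney 1 of 40 passed, lower in males, against 0.231% in either direction and 0.101% in that one, and 6 had an unadjusted p below 0.05, all 6 with the lower mean in males. Over all probe sets 4.85% had an unadjusted p below 0.05, 2.55% with the lower mean in males. The median absolute difference over members was 0.12, 0.14 and 0.08 in liver, kidney and hypothalamus, beside 0.10, 0.11 and 0.07 over all tested probe sets. With same-numbered samples paired as a replicate block, 3 kidney members passed (1.05% of all), and 0 in liver (0.0794%) and hypothalamus (0.0653%). Unadjusted, the block gave 3 in liver, against 4.48% of all probe sets, 8 in kidney, against 12.4%, and 0 in hypothalamus, against 4.58%.

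The kidney member was Abcc3, at 339, 406 and 544 in females and 84, 91.2 and 79 in males. All 3 male samples lay under the 40th percentile, so the probe set was tested only through the female samples, where it was high. Females were at least 3.34-fold higher, with the percentile as the floor. The fitted difference was -1.89 ± 0.18 (male minus female, limma adjusted p = 0.00489); its size rests on the pseudocount and lay between -2.29 and -1.17 over the alternatives. The call was kept with the replicate block. Leaving out any 1 sample kept it too, with limma adjusted p of 0.0114 to 0.0377. With the second array of each RNA sample alone it was 0.0564.

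That male-female difference was tested against those of the other tissues as an interaction. For 52 tested members the liver difference minus the kidney difference passed for Abcc3 alone, at 2.00 ± 0.27 (limma adjusted p = 0.00110; 0.237% of all probe sets passed). The liver minus kidney call was lost with the first arrays alone (0.0604) and with the second arrays alone (0.0802). Kidney minus hypothalamus was past the threshold for Abcc3 alone too, at -1.80 ± 0.27 (0.00343; 0.207%), and not with 4 times the pseudocount (0.0554) or the second arrays alone (0.431). Since all hypothalamus samples lay under the 40th percentile, no male-female difference could be seen there, and this contrast holds no more than the kidney difference. Liver minus hypothalamus passed for 0 members (limma; 1 unadjusted; 0.0178%).

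Abcb1b pointed the same way in kidney without passing in the unpaired fit. The log2 difference was -1.22 ± 0.28 (limma adjusted p = 0.330). Males read 113, 183 and 65 and females 407, 356 and 240, without overlap. Above the 40th percentile lay 1 of 3 male and 3 of 3 female samples. The size of the difference thus rests in part on the pseudocount, and it lay between -1.47 and -0.75 over the alternatives. With any 1 sample left out its adjusted p was 0.111 to 0.985. With sample numbers as a replicate block the same difference had an SE of 0.15 and passed (0.0162), and in a fit of all 8 groups its adjusted p was 0.00710. As an interaction, liver minus kidney was 1.54 ± 0.32 (limma adjusted p = 0.0590, and 0.0115 with the block). Kidney minus hypothalamus was -1.31 ± 0.32 (limma adjusted p = 0.174, and 0.0352 with the block). Abcb1b lay under the 40th percentile in every liver and hypothalamus sample, so these contrasts hold no more than the kidney difference.

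Abca4, the retinoid flippase of the retina, read 133, 135 and 66.9 in male and 235, 229 and 153 in female kidney. Its difference of -0.71 ± 0.24 did not pass unpaired (limma adjusted p = 0.783) and passed with the replicate block (0.0429). Male sample 3 and female sample 3 were the lowest of their groups, and 2 of 3 male samples lay above the 40th percentile. Elsewhere Abca4 lay under the 40th percentile in all samples.

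The other 3 kidney members with a low unadjusted p were Abcb1a (-0.64 ± 0.20), Abcc1, a glutathione conjugate pump (-0.48 ± 0.15), and Abcb6, a transporter linked to porphyrins (-0.35 ± 0.14), with limma adjusted p of 0.676, 0.688 and 0.950. For Abcb1a 1 of 3 male kidney samples lay above the 40th percentile. Abcg2, which led kidney, overlapped between the sexes. Of the bile pumps, Abcb11, Abcb4 and Abcg5 overlapped between male and female liver, whereas Abcg8 was higher in every male than in every female sample without passing (0.14 ± 0.12, limma adjusted p = 1.00, unadjusted p = 0.281). In liver the lowest unadjusted p of a member was that of Abca8b, 0.40 ± 0.18 higher in males (unadjusted p = 0.0566).

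**Figure D4:**
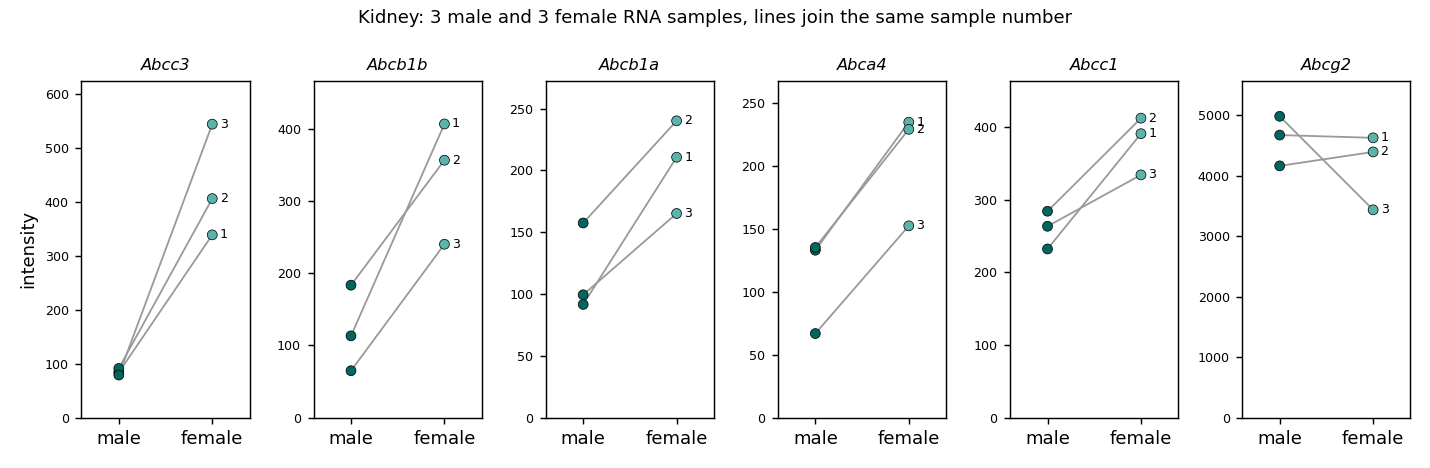
Intensity (linear axis from 0) of 6 members in the 3 male and 3 female kidney samples; lines join samples of the same number, which is printed at the female point. Abcc3, Abcb1b, Abcb1a, Abca4 and Abcc1 are members with an unadjusted limma p below 0.05 in kidney, each with the lower mean in males. Abcg2 led kidney and overlaps between the sexes. Of the 6, Abcc3 passed the unpaired test.

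Companion genes in kidney gave 0 calls between the sexes in the unpaired fit in any list. With the replicate block, which passed 1.05% of all tested probe sets against 0.231% without it, 2 of 6 tested bile acid partners passed. Baat, which conjugates bile acids, was lower in males, where it was under the 40th percentile (70 ± 12 against 168 ± 29, SD, n = 3; limma adjusted p = 0.0231 with the block, 0.175 without). Nr1h4, the bile acid receptor FXR, was higher in males (1450 ± 435 against 802 ± 227; 0.0441 and 0.713). Among 8 organic anion carriers 2 passed, both higher in males: Slc22a6 (5274 ± 1567 against 2239 ± 37; 0.0316 and 0.175) and the urate carrier Slc22a12 (5360 ± 1776 against 3479 ± 1201; 0.0496 and 1.00).

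Markers of other parts of the kidney also differed in level between the groups. The 9 markers of the loop, distal tubule and collecting duct on the array summed to 25232 to 29822 in male and 31560 to 35277 in female kidney, and the 8 endothelial markers to 4771 to 5078 and 5390 to 6288, both without overlap. The 9 proximal tubule markers summed to 72378 to 83481 and 69113 to 81958, which overlapped. The 3 adrenal cortex markers summed to 539 to 641 and 539 to 1057, with Cyp21a1 at 352 ± 69 in males and 559 ± 266 in females. Their part in the kidney differences was not tested.

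Testis against ovary compared different organs. Of 39 tested member probe sets, 24 of 14 genes passed (61.5%), against 70.5% of all probe sets. Higher in testis were 4 (10.3%, against 24.9%), and lower in testis 20 (51.3%, against 45.6%). Members had a median difference of -0.58 beside -0.35 over all tested probe sets. That shift of all probe sets depends on scaling, being 0.05 with arrays centred on their medians and -0.12 with quantile normalization, and the share of all calls that were higher in testis was 35.3% in the main scaling, 52.3% and 45.1%. Of the 24, 6 probe sets were under the 40th percentile in all testis samples and were tested only through ovary. Spermatid markers summed to 95656 to 124499 in testis and 308 to 431 in ovary, and steroidogenic markers to 8037 to 14772 and 27986 to 33587.

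Higher in testis was Abcc3, at 2210, 1817 and 2128 against 247, 206 and 285, by 2.84 ± 0.17 (limma adjusted p = 6.16e-07). Abcf2 followed by 1.57 ± 0.16 (2.04e-05), with 1756, 1441 and 1776 against 578, 464 and 541. Abcb6 read 631, 549 and 1340 in testis and 259, 243 and 286 in ovary, a difference of 1.41 ± 0.29 (0.00166), and testis sample 3 stood apart. The brighter Abcf3 probe set was higher by 1.17 ± 0.19 (4.46e-04), and another did not pass (-0.36 ± 0.15, 0.0510). All 4 kept their direction and call under both other scalings.

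The largest member difference in the other direction was that of Abcb1b, at 10.3, 15.6 and 18.2 against 1026, 1908 and 1010. The difference was -4.37 ± 0.23 (limma adjusted p = 3.62e-07), and ovary was at least 10.6-fold higher with the percentile as the floor. Its neighbour Abcb1a was lower by its brighter probe set (-1.19 ± 0.17), with 1 of 3 testis samples above the 40th percentile. The other Abcb1a probe set was under it in all 3, which leaves a bound of at least 1.97-fold higher in ovary. Abcb4 did not pass (0.15 ± 0.17, adjusted p = 0.455).

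Of 5 tested genes for sterol and phospholipid carriers, 3 were lower in testis by their brightest probe set and 0 higher, a share near the 45.6% of all tested probe sets that were lower. Abca1, which loads cholesterol on apolipoprotein A-I, read 576, 596 and 1055 in testis and 2246, 2394 and 2667 in ovary by its brightest probe set (-1.70 ± 0.23, limma adjusted p = 1.09e-04), and its other 2 probe sets passed too, one of them with all testis samples under the 40th percentile (at least 2.05-fold higher in ovary). Abca7 and the brighter Abca3 probe set passed with all testis samples under the 40th percentile, so they give bounds, at least 2.12-fold and 2.59-fold higher in ovary. The other Abca3 probe set, at -0.43 ± 0.17, is at -0.06 and does not pass under either other scaling. Abcg1, a partner of Abca1 in cholesterol efflux, did not pass (-0.58 ± 0.24, 0.0510).

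Abca8a read 193, 164 and 200 in testis and 732, 1007 and 974 in ovary, without overlap (-2.01 ± 0.17, limma adjusted p = 6.42e-06). Abcd3, the peroxisomal importer of branched-chain and bile acid precursors, read 226, 228 and 482 in testis and 1346, 1367 and 1282 in ovary (-2.01 ± 0.25, limma adjusted p = 6.58e-05). Abcd3 was highest in liver, at 3501 to 5149, with kidney next (2636 to 3980). Abcd2, its relative for very long chain fatty acids, was not tested in the gonads by this filter and read 3.45 to 8.65 in all kidney and testis samples against 270 to 641 in liver.

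All 6 tested Abcc5 probe sets were lower in testis, 5 of them by -0.61 ± 0.20 for the brightest to -1.53 ± 0.18, and 1 with all testis samples under the 40th percentile (at least 2.41-fold higher in ovary). The call of the brightest was lost under both other scalings (-0.18 and -0.42). Both probe sets of Abce1, which splits ribosomes after translation, were lower (-1.31 ± 0.21 and -1.21 ± 0.23). Abcb10, a transporter of the mitochondrial inner membrane, passed by one probe set (-0.76 ± 0.21, limma adjusted p = 0.00958), which was lost under both other scalings, and not by the other (-0.18 ± 0.15, 0.308). Abcb8, also mitochondrial, did not pass (-0.33 ± 0.22).

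**Figure D5:**
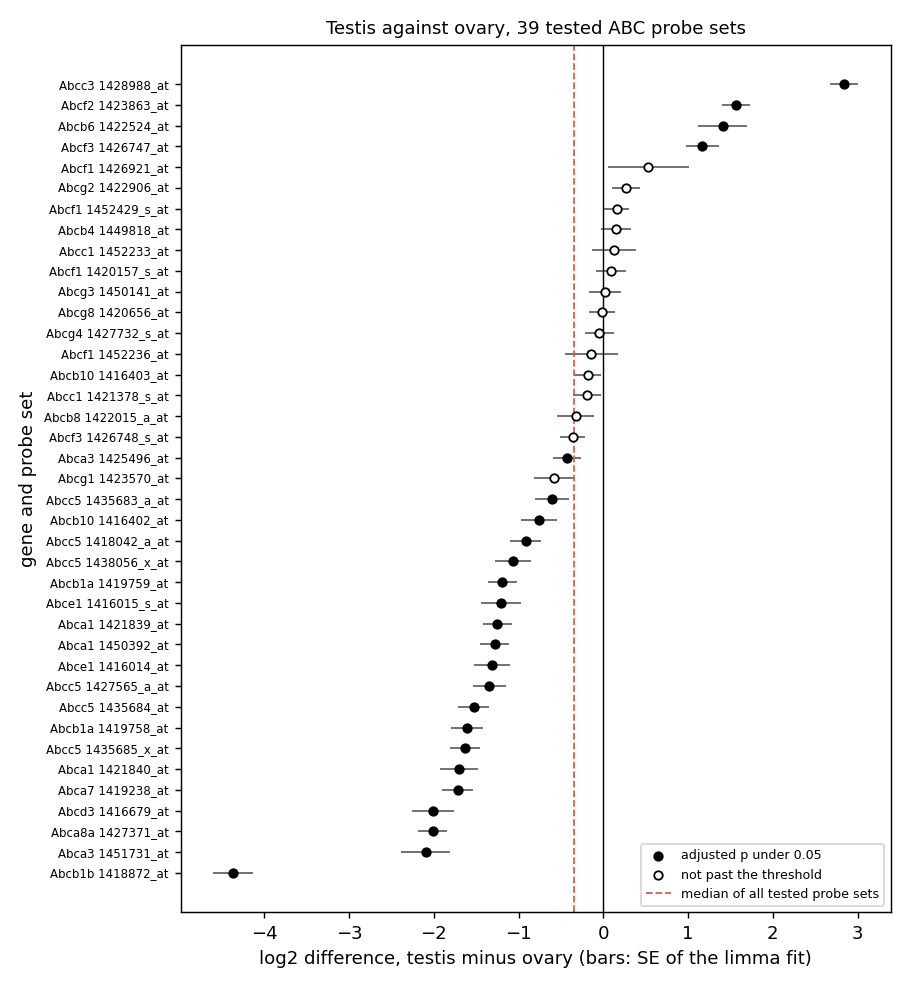
Log2 difference, testis minus ovary, of the 39 tested member probe sets (points; filled where the limma adjusted p is below 0.05), with SE bars of the fit for 3 against 3 RNA samples. The dashed line is the median of all tested probe sets, -0.35; 4 filled points lie to the right of 0 and 20 to the left, from Abcb1b at -4.37 to Abcc3 at 2.84, and 6 of those to the left have all testis samples under the 40th percentile, so that their place rests on the pseudocount.

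Among the companion lists, 9 of 10 tested sterol efflux partners were lower in testis than in ovary and 0 higher, led by Scarb1 at 1152 ± 232 against 9699 ± 1918 (SD, n = 3), with a list median of -1.47 beside -0.35 over all probe sets. Of 14 peroxisome partners 3 were higher and 8 lower, with Pex3 and Pex13, assembly factors, higher (2.33 ± 0.23 and 1.71 ± 0.17) and Cat, catalase, lower (-2.94 ± 0.18; all with limma adjusted p of 1.78e-05 or below). Of 13 genes of mitochondrial heme and iron-sulfur synthesis 2 were higher and 6 lower. Of 12 peptide loading genes 0 were higher and 4 lower. Of 6 ribosome recycling partners 2 were higher, Hbs1l and Pelo, and 1 lower, Etf1. Of 7 xenobiotic regulators 2 were higher and 5 lower, among the latter Ahr and Nfe2l2. Over all tested probe sets 24.9% were higher and 45.6% lower in testis. The counts of these lists were not tested against those shares. Ovary samples also carried adipocyte markers, summing to 12099 to 20025 against 831 to 2435 in testis, and fibroblast and muscle markers, at 34574 to 36562 against 4127 to 8453; their part in these differences was not tested.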

How the data were processed

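The values deposited by the authors are linear intensity values for each probe set and array. Sources used here do not name the software or the probe set summary. Members and gene lists were chosen with earlier results of these data known. Control probe sets (64) were dropped. Of the 22626 others, the platform annotation gave 1 symbol for 20380, several for 691 and no symbol for 1555.

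Array titles gave the groups. Each array was scaled to a trimmed mean of 500 (2% off each side) and taken as log2(intensity + 48.28), the pseudocount being the 20th percentile of scaled values; duplicate arrays were then averaged. Tested probe sets exceeded the 40th percentile in 3 or more of a comparison's RNA samples. Detection calls were not used. limma 3.58.1 in R 4.3.3 (lmFit, eBayes) was fitted to 6 RNA samples for each sex and gonad comparison, to 18 for the 3 interactions and to all 24 for the 10 tissue contrasts, with Benjamini-Hochberg adjustment at 0.05. Scripts were tested on simulated data with known changes. Named genes were members that passed or led, members of each role by range, and up to 4 companions per list with the lowest p.

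Deviations of same-numbered male and female samples correlated, for numbers 1 to 3, at 0.535, 0.139, 0.482 (liver), 0.591, 0.424, 0.627 (kidney) and 0.392, 0.101, 0.328 (hypothalamus). Each exceeded 0.1, so the title numbers were taken as pairing. The highest correlation of differently numbered samples was 0.286 in liver, -0.116 in kidney and 0.0906 in hypothalamus. Number 2 lay below that value in liver and just above it in hypothalamus, so the pairing is clear in kidney alone. Gonads gave 0.0422, 0.146 and 0.0425, against at most 0.0325 for other numbers, and were not paired. Alternatives were other scalings, pseudocounts, filters, variance trend and array subsets, a replicate block, a fit of all groups, a larger lead and leaving out each RNA sample. Promoter windows come from RefSeq (GRCm38.p6). Plots used matplotlib 3.10.9 (Python 3.11.15).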

Additional observations from a re-analysis of the deposited data

Results flagged for a closer look

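The male-female difference of Abcc3 differed between tissues by the interaction test, by 2.00 on the log2 scale for liver minus kidney and by -1.80 for kidney minus hypothalamus. In kidney males were lower, at 79 to 91.2 against 339 to 544, while in liver the sexes overlapped, and in hypothalamus both lay under the 40th percentile, where no difference could be seen. All male kidney samples were under it too. Groups of 3 samples were not searched for outlying samples.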

How the results depend on the processing

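Of the counts of called members, 277 stayed within 1.5 times the value reported and 23 did not, and of the values of single members 1063 kept direction and call, 59 lost a call, 10 gained one and 0 reversed. In liver and hypothalamus the count between the sexes was 0 under every alternative and with any sample left out. In kidney the count of 1 became 0 with the second arrays alone, 3 with the replicate block and 2 in a fit of all 8 groups, and was 1 with any sample left out. The 2 interactions became 1 with 4 times the pseudocount or the first arrays alone, 0 with the second arrays alone, 4 with the replicate block, and 2 to 4 with a sample left out (4 without male kidney sample 2). Testis against ovary stood at 24 and ranged from 22 to 28 with a sample left out. In the gonads, where the numbers were not taken as pairs, the block gave 23 calls and the dimmer Abca3 probe set lost its call (limma adjusted p = 0.0700). There the calls among xenobiotic regulators went from 7 to 6. Among members tested between the sexes within a tissue, the block changed the calls of Abcb1b and Abca4 in kidney and no other; among companion genes it added the 4 kidney calls given in the text.

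Leads fell from 17 to 7 with a size of 2 on the log2 scale, from 8 to 4 in liver, 3 to 1 in kidney and in hypothalamus, and 2 to 0 in testis. The 2 in testis became 1 with quantile normalization, 4 times the pseudocount, the second arrays alone or without testis sample 3. The 1 in ovary became 2 with 0.25 times the pseudocount, the first arrays alone, hypothalamus left out, or without female kidney sample 1 or 3 or ovary sample 1. With a sample left out the ranges were 15 to 18 in all, 7 to 8 in liver, 2 to 3 in kidney, 2 to 3 in hypothalamus, 1 to 2 in testis and 1 to 2 in ovary. The causes were not tested. Signal over background limits the dim members: 12 probe sets gave no test, and differences from samples under the 40th percentile rest on the pseudocount.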
